A study of Mus musculus with 6 samples.

Results

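Laminins, nidogens and integrins join the cells of the kidney to their basement membranes, and 31 of their genes were compared between diabetic db/db and non-diabetic db/m mice. Laminins are trimers of an alpha, a beta and a gamma chain that polymerize into a sheet under epithelial and endothelial cells. Nidogens link this sheet to the collagen IV network, and integrins, pairs of an alpha and a beta chain in the cell membrane, bind these proteins from the cell side. In the glomerulus they carry the filtration barrier, whose basement membrane is laid down by podocytes and endothelial cells together.

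The 31 genes were all those with a symbol made of Lama, Lamb, Lamc, Nid, Itga or Itgb and a number, among the 22180 genes that had a probe set of their own on the array. They comprise 10 laminin chains, 2 nidogens and 19 integrin chains. Of the integrin chains, 3 belong mainly to leukocytes (Itga4, Itgb2 and Itgb7) and were kept apart, which left 28 genes. Itga10 was not analysed here.

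RNA came from the kidneys of 3 db/db mice, which lack a working leptin receptor, and 3 db/m littermates without diabetes, with 1 array per mouse. All 6 were males of the C57BL/KsJ strain, bought at 10 weeks of age, fed standard chow and killed at 22 weeks, with no treatment named. The labels name the tissue as kidney and the methods name it as renal cortex. Values are signals on the log2 scale, so a difference of 1 is a 2-fold difference, and signals of different probe sets cannot be set against each other as amounts of RNA.

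Proximal tubule markers had a mean signal of 11.16 to 11.19 in db/db mice and 10.99 to 11.20 in db/m mice, and podocyte, endothelial, distal and collecting duct markers also lay above the array medians of 3.36 to 3.43. Endothelial marker means lay at 8.04 to 8.09 in db/db mice and 8.06 to 8.08 in db/m mice. The 6 thick limb and distal tubule markers were all higher in db/db mice and 0 were called, with list means of 9.81 to 9.92 in db/db mice against 9.49 to 9.55 in db/m mice. The db/m replicate 3 lay farthest from the other arrays on the first principal component, at -45.3, where db/db mice lay at 15.8 to 35.6 and the other db/m mice at -20.8 and -2.40. The db/db replicate 3 had a mean platelet marker signal of 6.15, against 4.75 and 4.86 in the other db/db mice and 4.81 to 4.90 in db/m mice. Its S100a8, a neutrophil gene, had a signal of 6.08, against 2.05 and 2.16 in the other db/db mice and 1.89 to 2.06 in db/m mice. The db allele changes the splicing of Lepr, the leptin receptor gene, and its single probe set (log2 fold change 0.14) was not placed relative to the changed exon, so it does not check the genotype.

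**Figure D1:**
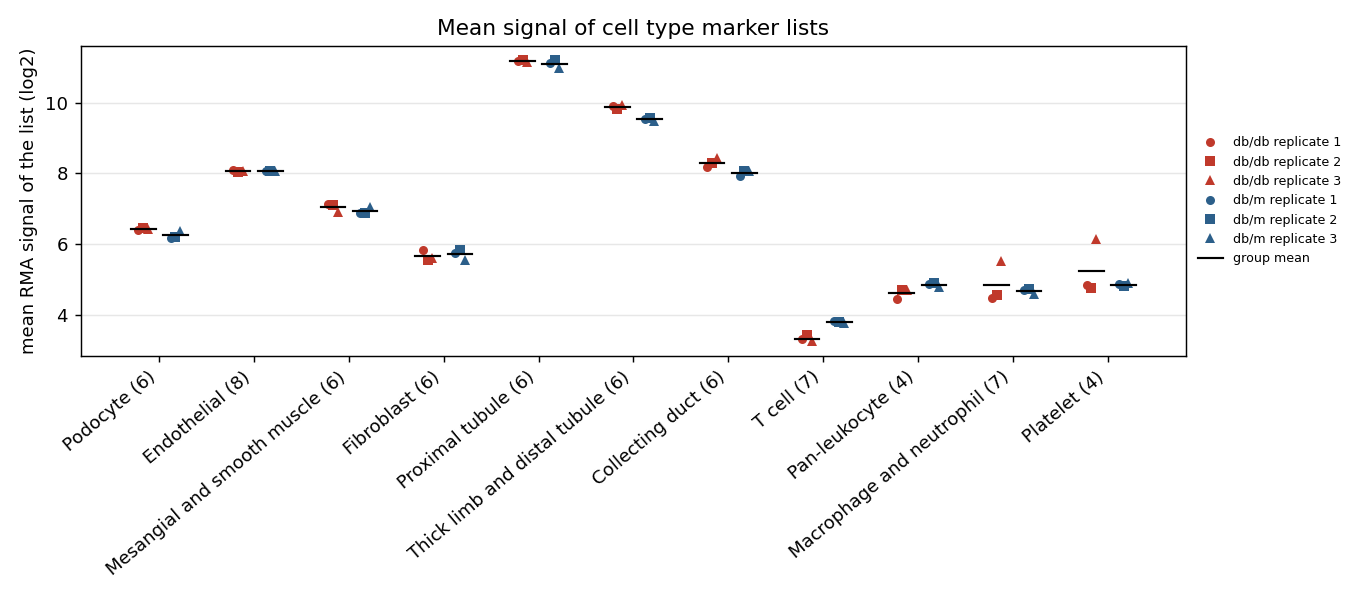
Mean signal of each cell type marker list (log2 scale, vertical axis; number of genes in brackets) in every array, with db/db mice left of db/m mice and the group mean as a bar. T cell marker means lie lower in all 3 db/db mice (3.25 to 3.43) than in the db/m mice (3.76 to 3.83), and db/db replicate 3 stands apart in the platelet list at 6.15.

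None of the 31 genes passed the test after adjustment over all genes (limma, Benjamini-Hochberg adjusted p under 0.05, 0 higher and 0 lower), where 0.482% of all genes passed. The lowest adjusted p was 0.161, for Itga5. At an unadjusted p under 0.05 from limma there were 3 genes higher (Lama5, Lamc1 and Itga5) and 2 lower (Lama2 and Lamc3) in db/db mice, which is 16.1% of the 31 against 10.6% of all genes. By direction, 5.92% of all genes passed this mark as higher and 4.70% as lower. None reached the thresholds of the study's methods, at least 1.5-fold together with p under 0.05 before adjustment, which 1.02% of all genes met as higher and 0.807% as lower. The db/db and db/m signals did not overlap in 6 of the 31 genes (19.4%, against 16.8% of all genes), of which 4 were higher in db/db mice (9.17% of all genes) and 2 lower (7.62% of all genes). The log2 fold change was above 0 in 19 of the 31 (61.3%, against 51.2% of all genes), with a median of 0.08, where the median over all genes was 0.00.

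How large a difference these arrays allow is given by its interval. The 95% interval of the log2 fold change had a median half-width of 0.27. It comes from limma, which shares the spread in part across genes, and is not adjusted for the number of genes. The interval lay within 1.5-fold in both directions for 25 of the 31 genes. The 6 others were Lama5 and Itga5, whose intervals reached past 1.5-fold on the higher side, Lama2, Lamb3 and Lamc3 on the lower side, and Itgb3 on the higher side.

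**Figure D2:**
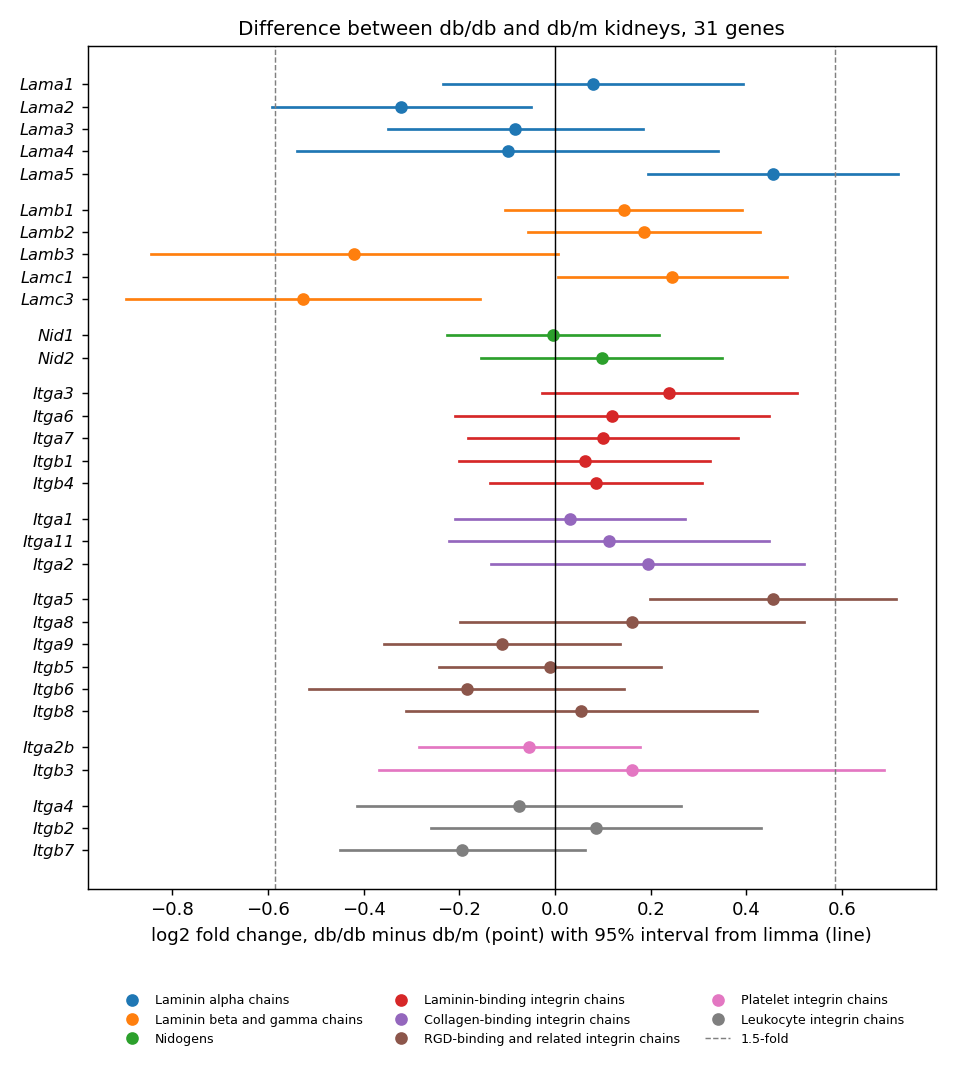
Log2 fold change of each of the 31 genes (points, horizontal axis, db/db minus db/m) with its 95% interval from limma (lines), coloured by gene group, with dashed lines at 1.5-fold. The intervals of Lama5, Lamc1 and Itga5 lie above 0 and those of Lama2 and Lamc3 below 0, and 25 of the 31 intervals lie between the dashed lines.

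The chains of the mature glomerular basement membrane, Lama5, Lamb2 and Lamc1, were each higher in all 3 db/db mice than in any db/m mouse, by a hair in Lamb2. Of all genes, 9.17% were apart in that direction, and none of these chains passed after adjustment. Lama5, the alpha chain of that laminin, had signals of 6.85, 6.99 and 6.90 in db/db mice against 6.36, 6.64 and 6.37 in db/m mice. Its log2 fold change was 0.46 ± 0.12 (SE, limma adjusted p = 0.166), a 1.37-fold difference with a 95% interval of 0.20 to 0.72 on the log2 scale. The db/db mice lay close together, and db/m replicate 2 was the db/m mouse nearest to them. Lama5 kept an unadjusted p under 0.05 from limma whichever array was left out, with log2 fold changes of 0.41 to 0.55.

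Lamc1, the gamma chain of most laminins, had signals of 6.87, 7.05 and 7.11 in db/db mice against 6.76, 6.73 and 6.80 in db/m mice, which gave a log2 fold change of 0.24 ± 0.11 (SE, limma adjusted p = 0.459). The gap between the groups was narrow, and the lowest db/db mouse lay close above the highest db/m mouse. An unadjusted p under 0.05 remained in 2 of 6 fits with 1 array removed (without db/db replicate 1 and without db/m replicate 3), with log2 fold changes of 0.20 to 0.31 over the 6. Lamb2, the beta chain that replaces Lamb1 as the glomerular basement membrane matures, had signals of 6.81, 6.98 and 6.95 in db/db mice against 6.61, 6.81 and 6.77 in db/m mice. Here the lowest db/db and the highest db/m mouse were equal after rounding, and the log2 fold change of 0.19 had an adjusted p of 0.585 by limma. Lamb1, the beta chain of immature glomerular and of tubular basement membranes, averaged 8.19 ± 0.13 in db/db mice and 8.05 ± 0.08 in db/m mice (SD, n = 3 each), with overlapping groups and an adjusted p of 0.693 by limma.

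Podocyte markers had values of the same direction beside these chains, and so did thick limb, distal tubule, collecting duct and urothelial markers. Proximal tubule markers were split, with 3 higher, 3 lower and a median log2 fold change of -0.01. Mesangial and smooth muscle markers were mixed, with 4 higher, 2 lower, 0 called and a median of 0.14. Their list mean was 6.91 to 7.14 in db/db mice against 6.88 to 7.06 in db/m mice. All 6 measured podocyte markers had positive log2 fold changes (median 0.20), 0 were called and 2 had an unadjusted p under 0.05 from limma. Their list mean was 6.40 to 6.46 in db/db mice against 6.18 to 6.38 in db/m mice. At the same unadjusted mark there were 4 of 6 thick limb and distal tubule markers (median 0.32), all higher. So were 2 of 6 collecting duct and 1 of 4 urothelial markers, where 5.92% of all genes passed as higher. Calb1, a distal tubule marker (0.68), also met the study's 1.5-fold threshold. Nphs1, which encodes nephrin of the slit diaphragm, had a log2 fold change of 0.24 and Wt1, a podocyte transcription factor, one of 0.04. All 6 collecting duct markers and all 4 urothelial markers also had positive log2 fold changes with 0 called, and their list means differed by 0.29 and 0.38, against 0.17 for podocyte markers. Only 2 of the 4 urothelial markers lay above the median probe set. The collecting duct mean was 8.18 to 8.43 in db/db mice against 7.92 to 8.07 in db/m mice, and the urothelial mean was 3.56 to 3.85 in db/db mice against 3.21 to 3.55 in db/m mice. The part of these markers in the laminin values was not tested. In whole tissue, a larger share of a cell type and more RNA per cell cannot be told apart.

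The other alpha chains differed less or lay lower. Lama2, a laminin chain of muscle and of the mesangial matrix, had signals of 6.27, 6.11 and 6.06 in db/db mice against 6.65, 6.42 and 6.33 in db/m mice, so the groups did not overlap, and its log2 fold change was -0.32 ± 0.12 (SE, limma adjusted p = 0.376). The unadjusted p was no longer under 0.05 when db/db replicate 2, db/db replicate 3 or db/m replicate 1 was removed. Lama1, which is best known from early kidney development, averaged 6.03 ± 0.20 in db/db mice and 5.95 ± 0.19 in db/m mice. Lama3, a chain of epithelial basement membranes, averaged 7.02 ± 0.12 in db/db mice and 7.11 ± 0.15 in db/m mice (SD, n = 3 each in both genes). Both genes had overlapping groups, with adjusted p values of 0.878 and 0.847 by limma.

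Lama4, a chain of vascular basement membranes, had signals of 4.35, 4.35 and 4.54 in db/db mice against 4.83, 4.71 and 4.01 in db/m mice. A single db/m mouse, replicate 3, held the overlap. The log2 fold change of Lama4 was -0.10 (limma adjusted p = 0.894) with all arrays. Leaving out 1 array, it was lowest at -0.35 (adjusted p = 0.310) with db/m replicate 3 removed and highest at 0.06 with db/m replicate 1 removed. Endothelial markers, of which 2 of 8 were higher and 0 were called, had a median log2 fold change of -0.01.

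Lamc3, a gamma chain of limited distribution, had the largest difference among the 31 genes. Its signals were 5.70, 5.42 and 5.25 in db/db mice against 6.03, 5.69 and 6.23 in db/m mice, with a log2 fold change of -0.53 ± 0.16 (SE, limma adjusted p = 0.277). The groups met at the highest db/db mouse and the lowest db/m mouse, which had nearly the same signal. With 1 array left out, its log2 fold change lay between -0.67 with db/m replicate 2 removed and -0.41 with db/m replicate 3 removed, and the unadjusted p from limma was under 0.05 each time. Lamb3, which pairs with Lama3 in epithelial laminin, had signals of 3.62, 3.48 and 3.62 in db/db mice against 3.61, 3.91 and 4.45 in db/m mice. Here db/m replicate 3 stood high, and the log2 fold change of -0.42 (limma adjusted p = 0.476) was -0.19 without that mouse (adjusted p = 0.632). With db/m replicate 1 removed it was -0.61 (adjusted p = 0.302), and these are the bounds over the 6 fits with an array removed.

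The nidogens differed little. Nid1, given to 3 decimals, had signals of 8.026, 8.016 and 8.091 in db/db mice against 8.119, 8.004 and 8.025 in db/m mice, with a 95% interval of the log2 fold change from -0.23 to 0.22. The groups overlapped, and the log2 fold change turned slightly positive with arrays centred on their medians (0.01). Nid2 had signals of 6.12, 6.05 and 5.92 in db/db mice against 5.88, 6.07 and 5.85 in db/m mice, with an interval from -0.15 to 0.35. The adjusted p values were 0.992 and 0.803 by limma.

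**Figure D3:**
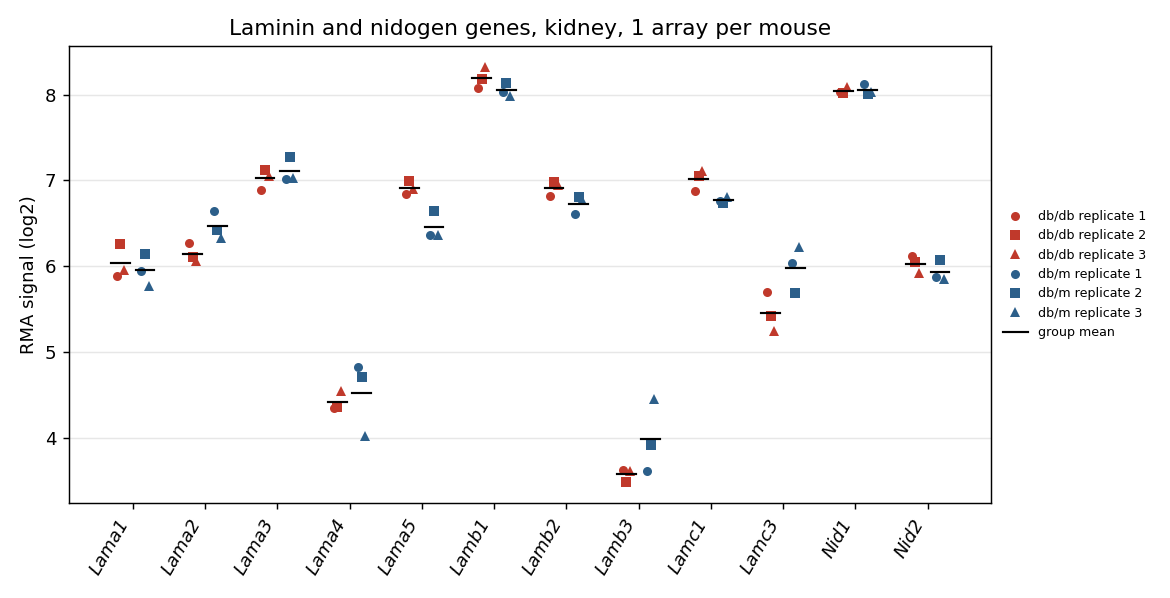
Signal (log2 scale, vertical axis) of the 10 laminin chains and 2 nidogens in each array, with db/db mice left of db/m mice and the group mean as a bar. Lama5, Lamb2 and Lamc1 lie higher in all 3 db/db mice, Lama2 lies lower in all 3, and both nidogens overlap.

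Promoter windows from RefSeq (GRCm38.p6) run from 250 bases before to 50 after each gene's start, and are shown for the genes with an unadjusted p under 0.05 and groups apart, where the table holds an entry (Itga5, Lama5 and Lama2). Sequence is given 5′ to 3′ on the gene's strand, and capitals mark each GC box, the Sp1-type motif GGGCGG on either strand.
Lama5, chr2:180225810-180226109, minus strand: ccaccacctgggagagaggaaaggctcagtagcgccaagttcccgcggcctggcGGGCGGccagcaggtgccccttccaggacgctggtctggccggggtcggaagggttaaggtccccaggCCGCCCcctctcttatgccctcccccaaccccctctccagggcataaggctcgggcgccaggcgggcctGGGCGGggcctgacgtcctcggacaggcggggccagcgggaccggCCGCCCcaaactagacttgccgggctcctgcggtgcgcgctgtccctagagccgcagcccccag
Itga5, chr15:103366742-103367041, minus strand: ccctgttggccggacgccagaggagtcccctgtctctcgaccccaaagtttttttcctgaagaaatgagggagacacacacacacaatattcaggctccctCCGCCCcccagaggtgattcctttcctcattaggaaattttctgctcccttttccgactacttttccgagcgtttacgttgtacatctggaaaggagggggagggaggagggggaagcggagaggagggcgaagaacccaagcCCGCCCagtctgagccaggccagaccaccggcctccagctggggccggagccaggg
Lama2, chr10:27616893-27617192, minus strand: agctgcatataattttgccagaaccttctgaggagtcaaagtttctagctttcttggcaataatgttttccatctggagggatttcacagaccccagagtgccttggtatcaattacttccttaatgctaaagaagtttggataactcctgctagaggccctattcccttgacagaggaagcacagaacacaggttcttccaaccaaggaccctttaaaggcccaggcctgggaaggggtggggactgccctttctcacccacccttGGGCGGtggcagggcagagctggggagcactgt
The Lama5 window held 4 GC boxes and was 72.7% G or C, the Itga5 window held 2 at 58.7% and the Lama2 window held 1 at 50.3%. Of the 31 genes, 20 had entries, with 23 windows in all, and 11 of these windows (47.8%) held a GC box, against 35.7% of the 32851 windows of the table. A TATA box (TATAAA) was found in 0 of the 23 and in 13.6% of all windows, an AP-1 site (TGANTCA) in 2 of the 23 and 7.8% of all, and an E-box (CACGTG) in 0 of the 23 and 7.2% of all. Both strands were searched, and none of these motifs contains another. No binding was measured, so these matches describe the sequence only.

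Among the laminin-binding integrins, all 5 chains had positive log2 fold changes of 0.06 to 0.24, and 0 passed at an unadjusted or adjusted p under 0.05. Itga3, which with Itgb1 forms the laminin receptor of podocytes, had signals of 6.72, 6.74 and 6.87 in db/db mice against 6.44, 6.44 and 6.73 in db/m mice, with a log2 fold change of 0.24 ± 0.12 (SE, limma adjusted p = 0.524). The groups met at db/m replicate 3, and without that mouse the log2 fold change was 0.34 (adjusted p = 0.296), against 0.19 to 0.27 when any other array was removed. Itgb1, the beta chain shared by most matrix receptors, had signals of 8.37, 8.34 and 8.55 in db/db mice against 8.34, 8.51 and 8.24 in db/m mice. These groups overlapped, and the interval of the log2 fold change was -0.20 to 0.32. The remaining chains were Itga6 (0.12), its hemidesmosomal partner Itgb4 (0.09) and Itga7, a laminin receptor chain of muscle (0.10), with adjusted p values of 0.801 to 0.820 by limma. Without db/db replicate 3, the log2 fold changes of Itga6 and Itgb1 were -0.05 and -0.00.

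The 3 collagen receptor chains had log2 fold changes of 0.03 to 0.19, which moved with single db/m arrays. Itga1 was at -0.03 without db/m replicate 3, Itga11 at -0.03 without db/m replicate 1, and Itga2 had its lowest value, 0.05, with db/m replicate 3 removed and its highest, 0.33 (unadjusted p = 0.0421 by limma), with db/m replicate 2 removed. Itga1, a collagen IV receptor chain of mesangial cells, averaged 8.45 ± 0.06 in db/db mice and 8.42 ± 0.11 in db/m mice. Itga2 averaged 3.79 ± 0.08 in db/db mice and 3.59 ± 0.28 in db/m mice (SD, n = 3 each in both genes). Itga11, a receptor chain for fibrillar collagen, was the only one of the 31 genes below the median probe set (mean 3.30, median 3.37). With all arrays, none of these chains had an unadjusted p under 0.05.

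Itga5, the alpha chain of the classical fibronectin receptor, had the lowest p of the 31 genes. Its signals were 5.27, 5.49 and 5.30 in db/db mice against 4.96, 4.75 and 4.97 in db/m mice, and no db/db mouse reached down to a db/m mouse. The log2 fold change was 0.46 ± 0.11 (SE, limma adjusted p = 0.161), a 1.37-fold difference with a 95% interval of 0.20 to 0.71 on the log2 scale. It kept an unadjusted p under 0.05 from limma whichever array was left out, with log2 fold changes of 0.39 to 0.50. Its ligand gene Fn1, fibronectin, had a log2 fold change of -0.08 (limma adjusted p = 0.866).

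Itga8, a mesangial chain that binds nephronectin and is needed for kidney development, had signals of 7.11, 6.90 and 6.63 in db/db mice against 6.87, 6.85 and 6.44 in db/m mice. Replicate 3 was lowest in both groups, the groups overlapped, and the log2 fold change was 0.16 (limma adjusted p = 0.772). Its ligand gene Npnt, nephronectin, had a log2 fold change of 0.15 (limma adjusted p = 0.804). Itga9, a receptor chain for tenascin C, had a log2 fold change of -0.11.

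Itgb5, Itgb6 and Itgb8, which are among the beta chains that pair with Itgav, had small differences in both directions. Itgb6 and Itgb8, whose receptors activate latent TGF-beta, had log2 fold changes of -0.18 and 0.05, and Itgb5 one of -0.01 (0.00 with arrays centred on their medians). Adjusted p values were 0.703, 0.932 and 0.981 by limma. Itgb8 had signals of 9.53, 9.43 and 9.61 in db/db mice against 9.67, 9.65 and 9.07 in db/m mice, and db/m replicate 3 was low. Without that mouse its log2 fold change was -0.14, and it lay between 0.01 and 0.16 when any other array was removed. Itgav itself, which bears a letter and so is outside the 31, had a log2 fold change of 0.16 (limma adjusted p = 0.686).

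Itga2b and Itgb3 form the fibrinogen receptor of platelets. Itgb3 had signals of 4.32, 4.02 and 5.06 in db/db mice against 4.13, 4.30 and 4.50 in db/m mice, so db/db replicate 3 lay above the others. That mouse was also the one with the high platelet markers, of which Gp9, a platelet membrane glycoprotein gene, had 7.43 there, against 5.61 and 5.67 in the other db/db mice and 5.32 to 5.47 in db/m mice. The log2 fold change of Itgb3 was 0.16 with all arrays. Leaving out 1 array, it was lowest at -0.14 with db/db replicate 3 removed and highest at 0.38 with db/db replicate 2 removed, and none of these values passed. Itga2b showed no such high value, with 4.54, 4.69 and 4.67 in db/db mice against 4.74, 4.70 and 4.62 in db/m mice.

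**Figure D4:**
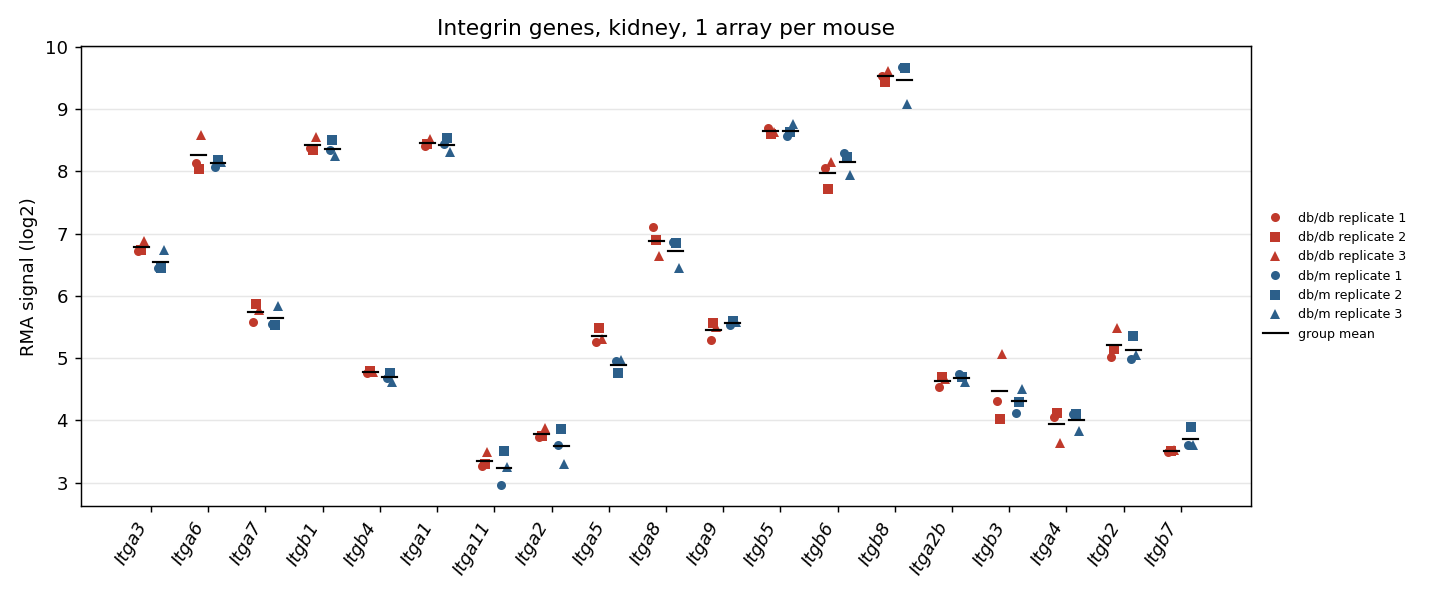
Signal (log2 scale, vertical axis) of the 19 integrin chains in each array, with db/db mice left of db/m mice and the group mean as a bar, ordered as laminin-binding, collagen-binding, RGD-binding and related, platelet and leukocyte chains. Itga5 lies higher in all 3 db/db mice, Itgb7 lies lower in all 3, and db/db replicate 3 stands high in Itgb3 at 5.06.

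The leukocyte chains differed little. Itgb7, a chain of lymphocytes that home to mucosa, had signals of 3.49, 3.51 and 3.52 in db/db mice against 3.60, 3.89 and 3.61 in db/m mice, and its log2 fold change was -0.19 (limma adjusted p = 0.590). The groups did not overlap, but by a narrow margin near the median probe set. Itgb2, the beta chain shared by most leukocyte integrins, had signals of 5.02, 5.14 and 5.49 in db/db mice against 4.98, 5.36 and 5.05 in db/m mice. Itga4, the alpha chain of a lymphocyte and monocyte receptor, had signals of 4.06, 4.12 and 3.64 in db/db mice against 4.11, 4.11 and 3.83 in db/m mice. Both overlapped, with log2 fold changes of 0.09 and -0.08 and adjusted p values of 0.881 and 0.895 by limma.

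Lymphocyte markers and most myeloid markers had negative log2 fold changes. All 7 T cell markers and all 4 pan-leukocyte markers had negative log2 fold changes, with medians of -0.37 and -0.27, and 1 of them, Cd3e, passed the test. All 3 B cell markers were lower too, with 0 called. Only 4 of the 7 T cell markers and 1 of the 3 B cell markers lay above the median probe set. Pan-leukocyte marker means were 4.46 to 4.71 in db/db mice against 4.80 to 4.91 in db/m mice. Of the 7 macrophage and neutrophil markers, 2 were higher (S100a8 and S100a9), 5 were lower and 0 were called. The lower ones included Csf1r (-0.48), Adgre1 (-0.28) and Cd68 (-0.21), each with no overlap, where 7.62% of all genes were apart as lower. Lyz2 (-0.08) and Cd14 (-0.01) were the other lower ones, and their groups overlapped. The list mean was 4.48, 4.55 and 5.52 in db/db mice against 4.70, 4.73 and 4.58 in db/m mice, so db/db replicate 3 alone was high. The part of these markers in the integrin values was not tested. Among the alpha chains named by a letter, Itgal, the lymphocyte partner of Itgb2, had 4.36, 4.38 and 4.13 in db/db mice against 4.46, 4.59 and 4.48 in db/m mice, with no overlap and an adjusted p of 0.540 by limma. Itgam, the myeloid partner, was highest in db/db replicate 3 at 4.42, against 3.30 and 3.39 in the other db/db mice and 3.38 to 3.70 in db/m mice.

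Among 22 other basement membrane genes, 0 passed as higher and 1 as lower after adjustment over all genes, with a median log2 fold change of -0.01. The called gene was Smoc1, a SPARC-related matrix protein, which fell in db/db mice with a log2 fold change of -0.97 ± 0.16 (SE, limma adjusted p = 0.0361). Its signals were 4.39, 4.84 and 4.57 in db/db mice against 5.40, 5.84 and 5.48 in db/m mice, and the groups were well apart. Smoc1 was also the only one of the 22 to meet the study's thresholds, which 0.807% of all genes met as lower. With 1 array left out it kept its call only without db/db replicate 2, and its adjusted p reached 0.153 without db/db replicate 1. Pxdn, peroxidasin, which crosslinks collagen IV, had a log2 fold change of -0.51 (limma adjusted p = 0.177), the related Smoc2 one of -0.43 (adjusted p = 0.338) and Fras1 one of -0.27 (adjusted p = 0.394), each with no overlap between the groups. In Smoc2 the groups were apart by a hair, with the highest db/db mouse at 5.633 and the lowest db/m mouse at 5.639. The collagen IV chain genes had log2 fold changes between -0.20 (Col4a3, a chain of the mature glomerular basement membrane, limma adjusted p = 0.519) and 0.05 (Col4a2), and Col4a3 and Col4a6 (-0.16, adjusted p = 0.624) were lower in all 3 db/db mice than in any db/m mouse. In all, 6 of the 22 genes had groups apart with db/db mice lower, where 7.62% of all genes did, and 0 with db/db mice higher. Perlecan (Hspg2) had a log2 fold change of 0.02.

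Other ligands and partners of integrins held 0 calls. Of 12 other integrin ligand genes, 4 had an unadjusted p under 0.05 from limma, all higher in db/db mice, where 5.92% of all genes passed that mark as higher. They were Egfl6 (log2 fold change 0.90, adjusted p = 0.264), a relative of nephronectin, Tnc (0.45, adjusted p = 0.213), tenascin C, Thbs1 (0.32, adjusted p = 0.337), thrombospondin, and Postn (0.29, adjusted p = 0.382), periostin. Of these, only Egfl6 (1.87-fold) met the study's thresholds, which 1.02% of all genes met as higher. Postn, with a mean signal of 3.23, lay below the median probe set (3.37). Of 28 genes of integrin adhesion complexes, 2 had an unadjusted p under 0.05, a smaller share than the 10.6% of all genes. They were Cd9 (0.39, adjusted p = 0.242), a tetraspanin, and Fermt1 (0.24, adjusted p = 0.459), a kindlin that activates integrins. The 8 other laminin receptors, among them dystroglycan (Dag1, 0.13) and Bcam (0.21), a receptor for Lama5, held 0 at that mark.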

How the data were processed

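The authors deposited 1 table of log2 signals per probe set and array, which the submitters' processing notes say was made by RMA in Affymetrix Expression Console. Version, filter and genome build are not given in the sources used here. The methods name another array than the annotation that fits the probe-set identifiers, and genes were named from that annotation. Of 41345 probe sets, 23521 name 1 gene. Per gene the brightest of these over all 6 arrays was used, and of the 31 genes only Nid1 had several. Over 22180 genes, limma 3.58.1 under R 4.3.3 (lmFit, eBayes, two-sided, no covariate) gave db/db minus db/m, adjusted by Benjamini-Hochberg. Precision is limited by the number of arrays, which is 3 in each group. The steps were tested on simulated data. Genes and lists were chosen with earlier results of these data known. Values in every array are given for genes at an unadjusted p under 0.05, the glomerular basement membrane chains, the nidogens, Itga3, Itgb1, Itga8 and the leukocyte chains, and companion genes are named when called or at an unadjusted p under 0.05. Array values of Lama4, Lamb3, Itgb3, Itga2b, Itgb8, Itgal and Itgam, and other companion genes, were added after their values were seen. Alternatives were other scalings, filters, variance models, the methods' t-test, the replicate block and each array left out.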

Additional observations from a re-analysis of the deposited data

How the results depend on the processing

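Under every alternative run, 0 of the 31 genes (30 with dim probe sets left out, which removes Itga11) passed after adjustment, also at an adjusted p under 0.1, and the lowest adjusted p of any of them was 0.111. Of 433 single-gene values under an alternative, 21, in 13 genes, had another sign than in the main analysis, and none of these 13 genes passed. The replicate numbers did not pair the mice (correlations of same-numbered deviations 0.04, -0.05 and -0.08). With the replicate block, 5 genes had an unadjusted p under 0.05 and 0 were called, and Lamb3 replaced Lamc1 among the 5. The methods' t-test gave 4 genes at an unadjusted p under 0.05 (Itga5, Lama2, Lama5 and Lamc1) and 0 after Benjamini-Hochberg adjustment. Leaving out 1 array, the number past the study's thresholds was 0 to 1, the number at an unadjusted p under 0.05 was 3 (without db/db replicate 2 or 3, where 9.43% and 8.85% of all genes passed) to 7 (without db/m replicate 3, 11.1% of all genes) and the number with groups apart was 7 to 13. The 13 came without db/m replicate 2, where 28.2% of all genes were apart, and 12 came without db/m replicate 3, where 29.0% were. Without db/db replicate 1 there were 10 (25.2% of all genes) and without db/m replicate 1 there were 8 (26.0% of all genes). The 7 came without db/db replicate 2 and again without db/db replicate 3, where 27.1% and 26.1% of all genes were apart. The number higher in db/db mice was 15 to 20. Among the 76 companion genes, the call of Smoc1 was lost (0 calls) with the methods' t-test and with moderation over all probe sets, and leaving out 1 array gave 0 to 1 calls. Signals near background limit Itga11, Itga2, Lamb3 and Itgb7.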

Other observations

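Genes with symbols close to those of the 31 were measured too. Itgb3bp, a centromere protein gene named for binding Itgb3, had signals of 4.71, 4.44 and 4.63 in db/db mice against 4.24, 4.42 and 4.03 in db/m mice, with no overlap and a log2 fold change of 0.36 (adjusted p = 0.348 by limma). Itgb1bp1, an inhibitor of integrin activation, had one of 0.05 and Itgb2l, dimmer than the median probe set, one of -0.04. The second probe set of Nid1 had a log2 fold change of 0.08, against -0.00 for the brighter one. Probe sets that Itgb4 and Itga4 share with another gene, which were not used above, had log2 fold changes of -0.25 and -0.07.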
